A study of Mus musculus with 16 samples.

Results

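The myeloid neoplasm driver genes described here are 36 mouse genes whose human counterparts are recurrently mutated in myelodysplastic syndromes, myeloproliferative neoplasms or acute myeloid leukaemia. They are given by a list of names, with no threshold on a measured value, although earlier results of these data were known when the list was made. All 36 were among the 55291 genes of the deposited count table. By role, 6 act in DNA methylation and the metabolites it depends on, 9 in signalling, 5 in the cohesin complex and its partner CTCF, 10 on histones and chromatin, and 6 as transcription factors, a helicase and others. Asxl1 and Srsf2, the genes engineered in these mice, are not among them. Of the 36 members, 35 passed the filter on low counts and were tested. Wt1, a zinc-finger transcription factor that is often high in human leukaemias, had 0 or 1 count in each library and was not tested.

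RNA was sequenced from Lin-cKit+Sca-1+ bone marrow cells (LSK cells, the fraction that holds haematopoietic stem and early progenitor cells), enriched with beads from 16 individual C57BL/6 mice. The 4 genotypes, with 4 mice each, were Asxl1Y588XTg, which carries a transgene for a shortened form of the chromatin regulator Asxl1; Srsf2P95H/+, with a mutation in 1 allele of the splicing factor gene Srsf2; DM, which carries both (genotype Asxl1Y588XTg;Srsf2P95H/+); and WT. The design text mentions 3 DM mice; 4 are labelled and have counts, and the values below are from all 4. For the Asxl1Y588XTg mice the deposited columns carry a shortened genotype name that matches no other group. The labels give no age, sex, batch, promoter of the transgene or way in which the Srsf2 allele was introduced.

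Myeloid neoplasms grow from stem and progenitor cells that have gained several mutations, and in patients mutations of ASXL1 and SRSF2 often occur together and with mutations of the genes described here. These genes fall into a few pathways. TET enzymes oxidise methylated cytosine and need alpha-ketoglutarate, which the isocitrate dehydrogenases IDH1 and IDH2 produce, while DNMT3A adds methyl groups to DNA. JAK2, the RAS proteins and their regulators carry signals from cytokine receptors, cohesin forms rings that hold and fold DNA, and the KMT2 enzymes, KDM6A, NSD1, SETD2, CREBBP and EP300 write or erase histone marks. The comparisons below address whether the messenger RNA of these genes differed with each engineered mutation and with both.

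Most driver genes were well expressed in LSK cells. Expression is given as CPM, counts per 1 M counts of a library after TMM scaling, and levels of different genes are compared only as CPM per kb of exon. Idh2, the mitochondrial isocitrate dehydrogenase, had the highest mean level over the 16 libraries with 98.4 CPM per kb, followed by the G protein beta subunit gene Gnb1 with 75.3 and the cohesin genes Rad21 with 73.3 and Smc1a with 66.3. Setbp1, which encodes a protein that binds the SET oncoprotein, was the lowest of the 35 with 0.256 CPM per kb. It lay at percentile 20.5 of all genes tested, and the other 34 lay above the median of the genes tested. The median percentile of the 35 was 88.4. Gnas, the stimulatory G protein alpha subunit, lay second from the bottom with 2.32 CPM per kb, but 22.0% of its exon length is shared with Gm20721 and Nespas in the annotation, so its count is uncertain. Ddx41 shares 17.4%, Zbtb33 9.25% and Ctcf 7.61% of exon length with other genes, and 13 of the 35 share some.

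**Figure D1:**
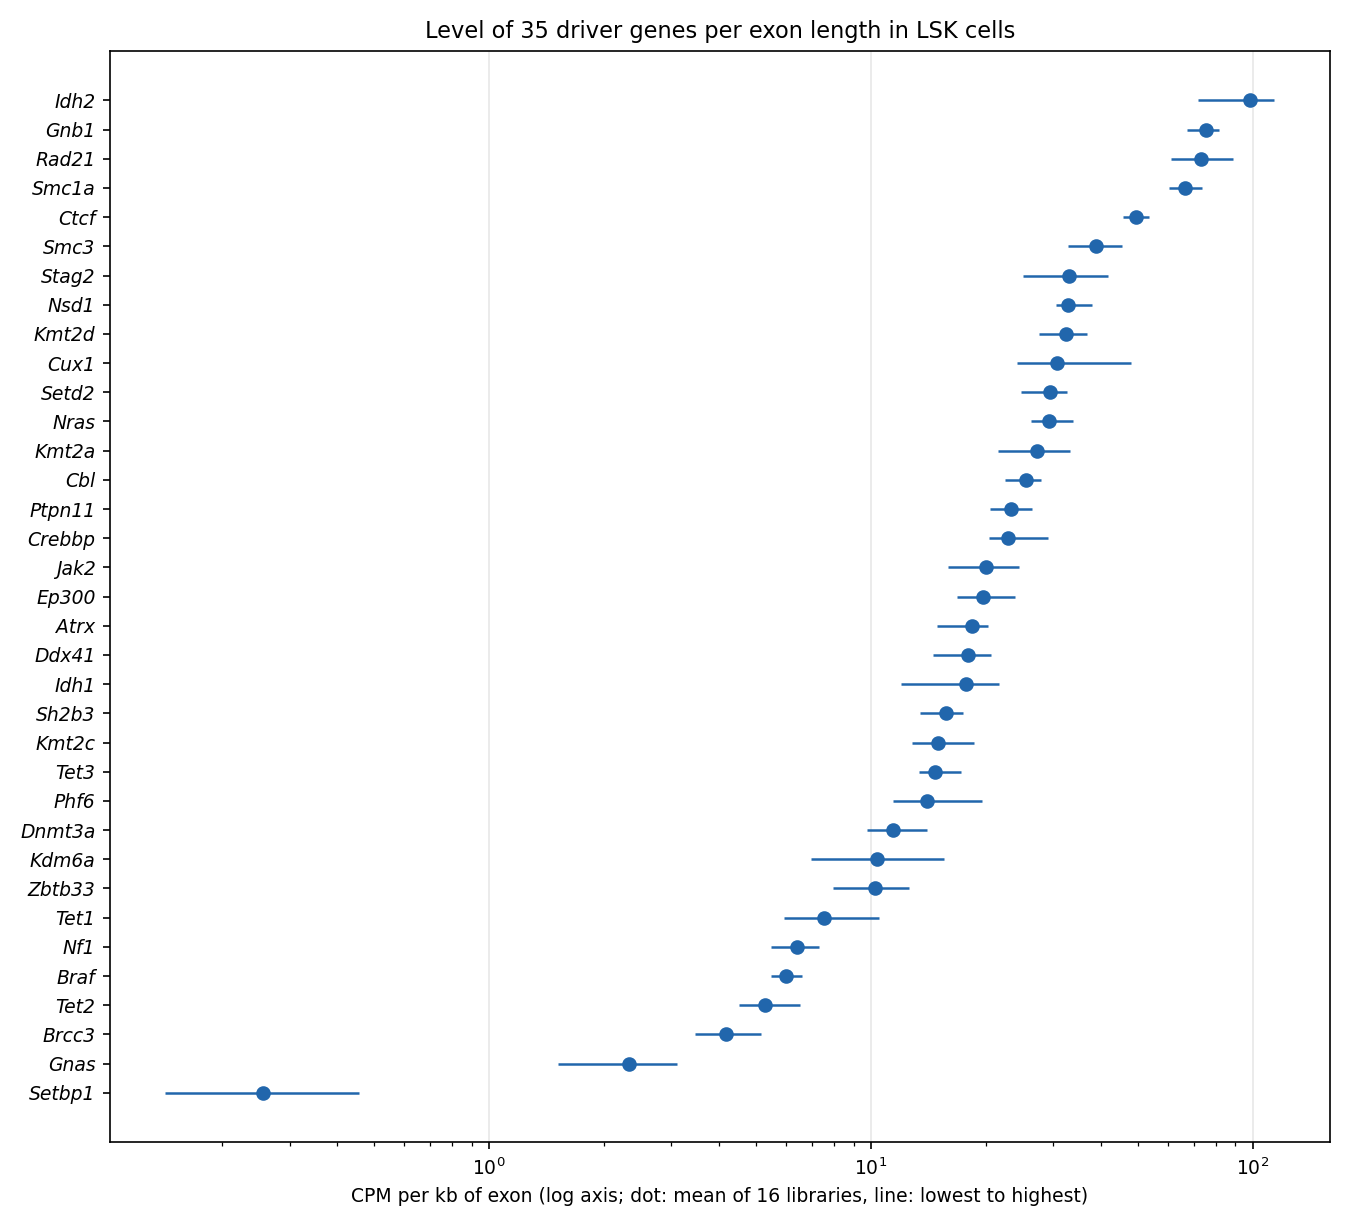
Level of each of the 35 tested driver genes per exon length (CPM per kb, log axis); the dot is the mean of the 16 libraries and the line runs from the lowest to the highest library. Idh2 stands at the top with 98.4 CPM per kb and Setbp1 at the bottom with 0.256.

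Within related families the levels per kb were unequal and kept their order in every genotype. Tet3 made up 56.5 ± 2.87% of the summed Tet level in Asxl1Y588XTg, 53.7 ± 1.52% in Srsf2P95H/+, 53.3 ± 2.003% in DM and 50.9 ± 1.14% in WT (SD, n = 4 each). Tet1 made up 24.8 ± 2.60%, 26.8 ± 1.19%, 27.5 ± 0.94% and 30.0 ± 2.21% in the same 4 groups, and Tet2, the member most often mutated in patients, the remaining share of 18.7% to 19.5%. Idh2 exceeded Idh1, its cytosolic relative, with 83.5% to 86.8% of their sum. Stag2 made up 71.0 ± 0.83% of the sum of Stag2 and its paralogue Stag1 in DM and 70.4 ± 0.78% in Srsf2P95H/+, against 67.0 ± 2.02% in Asxl1Y588XTg and 68.7 ± 0.95% in WT. Of the histone methyltransferase pair, Kmt2d made up 67.0% to 70.8% of the sum with Kmt2c. These shares were not tested.

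Promoters (250 bases before to 50 after the annotated start, RefSeq, GRCm38.p6) were found for 30 of the 36 members, 36 promoters in all. The GC box GGGCGG, searched on both strands, occurred in 29 of these 36 promoters (80.6%) and in 35.7% of the 32851 promoters of the table. The CCAAT box CCAAT occurred in 9 (25.0%) of the 36 and in 37.4% of all, and the TATA box TATAAA in 3 (8.33%), all of Gnas, and in 13.6% of all. The promoters of 5 members called below are shown, to set genes called higher (Zbtb33, Smc3, Idh1) beside genes called lower (Tet1, Tet3). The promoter of Kmt2d, also called lower, and another Idh1 promoter (chr1:65179093-65179392) are not shown, and both hold the GC box. No promoter was found for the called members Stag2 and Phf6. The Tet1 and Tet3 windows lie at RefSeq starts inside these genes as given by the GENCODE annotation used for exon lengths. There Tet1 begins at 62908996 and Tet3 at 83459084, both on the minus strand. Capitals mark the GC box and the CCAAT box on either strand, and the Zbtb33 promoter holds neither.
Zbtb33 (chrX:38189543-38189842, plus strand): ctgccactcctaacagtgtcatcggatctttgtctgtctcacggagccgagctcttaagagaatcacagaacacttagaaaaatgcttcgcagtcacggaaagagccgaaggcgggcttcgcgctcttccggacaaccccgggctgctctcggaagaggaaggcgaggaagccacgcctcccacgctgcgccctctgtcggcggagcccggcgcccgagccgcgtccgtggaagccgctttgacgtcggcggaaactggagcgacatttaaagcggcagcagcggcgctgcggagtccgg
Smc3 (chr19:53600146-53600445, plus strand): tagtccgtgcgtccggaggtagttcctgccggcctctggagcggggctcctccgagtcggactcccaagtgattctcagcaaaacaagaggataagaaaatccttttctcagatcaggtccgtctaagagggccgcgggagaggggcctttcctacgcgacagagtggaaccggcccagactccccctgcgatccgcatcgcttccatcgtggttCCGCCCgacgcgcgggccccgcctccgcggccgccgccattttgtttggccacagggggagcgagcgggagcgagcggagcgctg
Idh1 (chr1:65186430-65186729, minus strand): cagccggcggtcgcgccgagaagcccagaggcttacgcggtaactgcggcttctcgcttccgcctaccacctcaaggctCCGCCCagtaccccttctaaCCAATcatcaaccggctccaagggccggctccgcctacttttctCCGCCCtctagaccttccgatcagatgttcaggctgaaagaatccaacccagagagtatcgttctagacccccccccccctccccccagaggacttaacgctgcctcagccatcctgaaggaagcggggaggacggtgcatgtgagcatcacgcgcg
Tet1 (chr10:62887275-62887574, minus strand): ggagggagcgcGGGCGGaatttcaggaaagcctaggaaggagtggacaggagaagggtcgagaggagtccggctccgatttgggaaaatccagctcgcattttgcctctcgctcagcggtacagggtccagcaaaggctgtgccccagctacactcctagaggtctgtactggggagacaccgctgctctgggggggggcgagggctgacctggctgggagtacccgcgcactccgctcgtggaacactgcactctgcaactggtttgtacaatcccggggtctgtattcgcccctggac
Tet3 (chr6:83441629-83441928, minus strand): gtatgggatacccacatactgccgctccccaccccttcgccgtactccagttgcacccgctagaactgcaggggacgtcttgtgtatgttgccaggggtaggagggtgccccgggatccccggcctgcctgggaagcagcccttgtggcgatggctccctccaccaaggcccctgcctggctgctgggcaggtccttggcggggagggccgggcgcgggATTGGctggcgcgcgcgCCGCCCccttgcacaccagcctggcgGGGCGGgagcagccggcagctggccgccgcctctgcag
The base composition of these windows ranged from 61.7% G and C (Tet1) to 71.3% (Tet3).

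The 16 libraries held 83.0 to 127.6 M counts each, 120.2 ± 6.47 M in DM, 93.6 ± 7.02 M in Asxl1Y588XTg and 99.1 ± 6.08 M in Srsf2P95H/+, against 97.8 ± 18.7 M in WT (SD, n = 4 each). Each tested member other than Setbp1 had at least 1870 counts in each library. Asxl1 and Srsf2 were not called by edgeR in any of the 8 comparisons, and their levels do not check the labels. Asxl1 averaged 228 ± 7.94 CPM in Asxl1Y588XTg and 226 ± 8.89 CPM in DM. It averaged 214 ± 13.5 CPM in Srsf2P95H/+ and 220 ± 7.32 CPM in WT. Whether reads of the transgene count towards Asxl1 was not tested. Srsf2 had log2 fold change 0.32 in Asxl1Y588XTg versus WT (adjusted p 0.13) and -0.46 for the interaction (adjusted p 0.378). All 11 LSK markers were detected, with Kit at 699 to 1211 CPM and Ly6a (Sca-1) at 23.2 to 54.3 CPM. Of the other lineages, monocyte markers summed to 338 to 580 CPM in Srsf2P95H/+ and 324 to 513 CPM in DM, against 264 to 456 CPM in Asxl1Y588XTg and 76.7 to 440.3 CPM in WT. Mast cell or basophil markers, which share Gata2 with the LSK markers, summed to 282 to 739 CPM in Asxl1Y588XTg and 349 to 575 CPM in Srsf2P95H/+. They summed to 373 to 584 CPM in DM and 311 to 805 CPM in WT. Over the 16 libraries T or NK cell markers summed to 73.9 to 163 CPM, neutrophil markers to 7.99 to 148 CPM and erythroid markers to 17.0 to 66.3 CPM. WT 4 had the highest B cell markers (118 CPM) and eosinophil markers (1574 CPM) of the 16 libraries. In bulk RNA, fewer cells of a type and less RNA per cell cannot be told apart.

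Few driver genes passed the test between single genotypes. In edgeR's quasi-likelihood test, with p-values adjusted by Benjamini-Hochberg over the 22749 genes tested and a call at an adjusted p under 0.05, 1 of 35 members was called in Asxl1Y588XTg versus WT, where 1.88% of all genes were called. There 12 of the 35 members, all of them lower, had an unadjusted p under 0.05, where 21.5% of all genes had. In Srsf2P95H/+ versus WT no member was called by edgeR, where 0.506% of all genes were; 9 of the 35 members had an unadjusted p under 0.05, where 25.3% of all genes had. DESeq2 called 2 members, where it called 12.8% of all genes, and limma-voom 1, where it called 7.18%. In DM versus WT 2 members were called, where 9.39% of all genes were. An unadjusted p under 0.05 was found there for 11 members, 4 higher and 7 lower, and for 30.6% of all genes. In DM versus Asxl1Y588XTg 1 member was called, where 1.08% of all genes were. Unadjusted, 11 members had a p under 0.05 there, 9 higher and 2 lower, where 17.8% of all genes had. In DM versus Srsf2P95H/+ no member was called by edgeR, DESeq2 or limma-voom, none had an unadjusted p under 0.05, and 0.246% of all genes were called.

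The pooled Srsf2P95H/+ comparison, which uses all 16 mice, gave the most calls. For the pooled Srsf2P95H/+ effect, the mean of Srsf2P95H/+ versus WT and DM versus Asxl1Y588XTg (8 mice against 8), 5 members rose and 2 fell, 7 of 35, where 10.6% of all genes were called, 6.57% higher and 4.07% lower. The risen members were Zbtb33, Idh1, Stag2, Phf6 and Smc3, and the fallen ones Tet3 and Kmt2d. Unadjusted, 12 members had a p under 0.05, 9 higher and 3 lower, where 29.1% of all genes had. With library size alone as the scaling, which moved the median of all genes by -0.09 on the log2 scale, 1 member (Idh1) rose and 2 fell. With monocyte and neutrophil markers as a covariate, an alternative chosen after the data were seen, 1 member (Tet3) was called, and all genes called fell to 595, against 2420 without it. With Xist as a covariate, and likewise with B cell, T or NK cell and eosinophil markers as a covariate, 4 members rose and none fell. Leaving out 1 library gave 4 without Asxl1Y588XTg 2, 3 without Srsf2P95H/+ 1, 4 without Srsf2P95H/+ 3, 1 without DM 1, 4 without DM 2 and 4 without WT 4, and 5 to 8 for the other libraries. Over these omissions all genes called ranged from 914 to 3015, against 2420 with all 16 libraries. For the pooled Asxl1Y588XTg effect (Asxl1Y588XTg versus WT and DM versus Srsf2P95H/+) no member was called by edgeR, DESeq2 or limma-voom, where edgeR called 1.85% of all genes, and 5 members had an unadjusted p under 0.05, where 15.4% of all genes had. For the interaction, whether the change in DM differs from the sum of the single changes, edgeR called no member and 0% of all genes. At an unadjusted p under 0.05 it had 2 members and 2670 genes (11.7%), DESeq2 called no member and 48 genes, and limma-voom called no member and no gene.

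**Figure D2:**
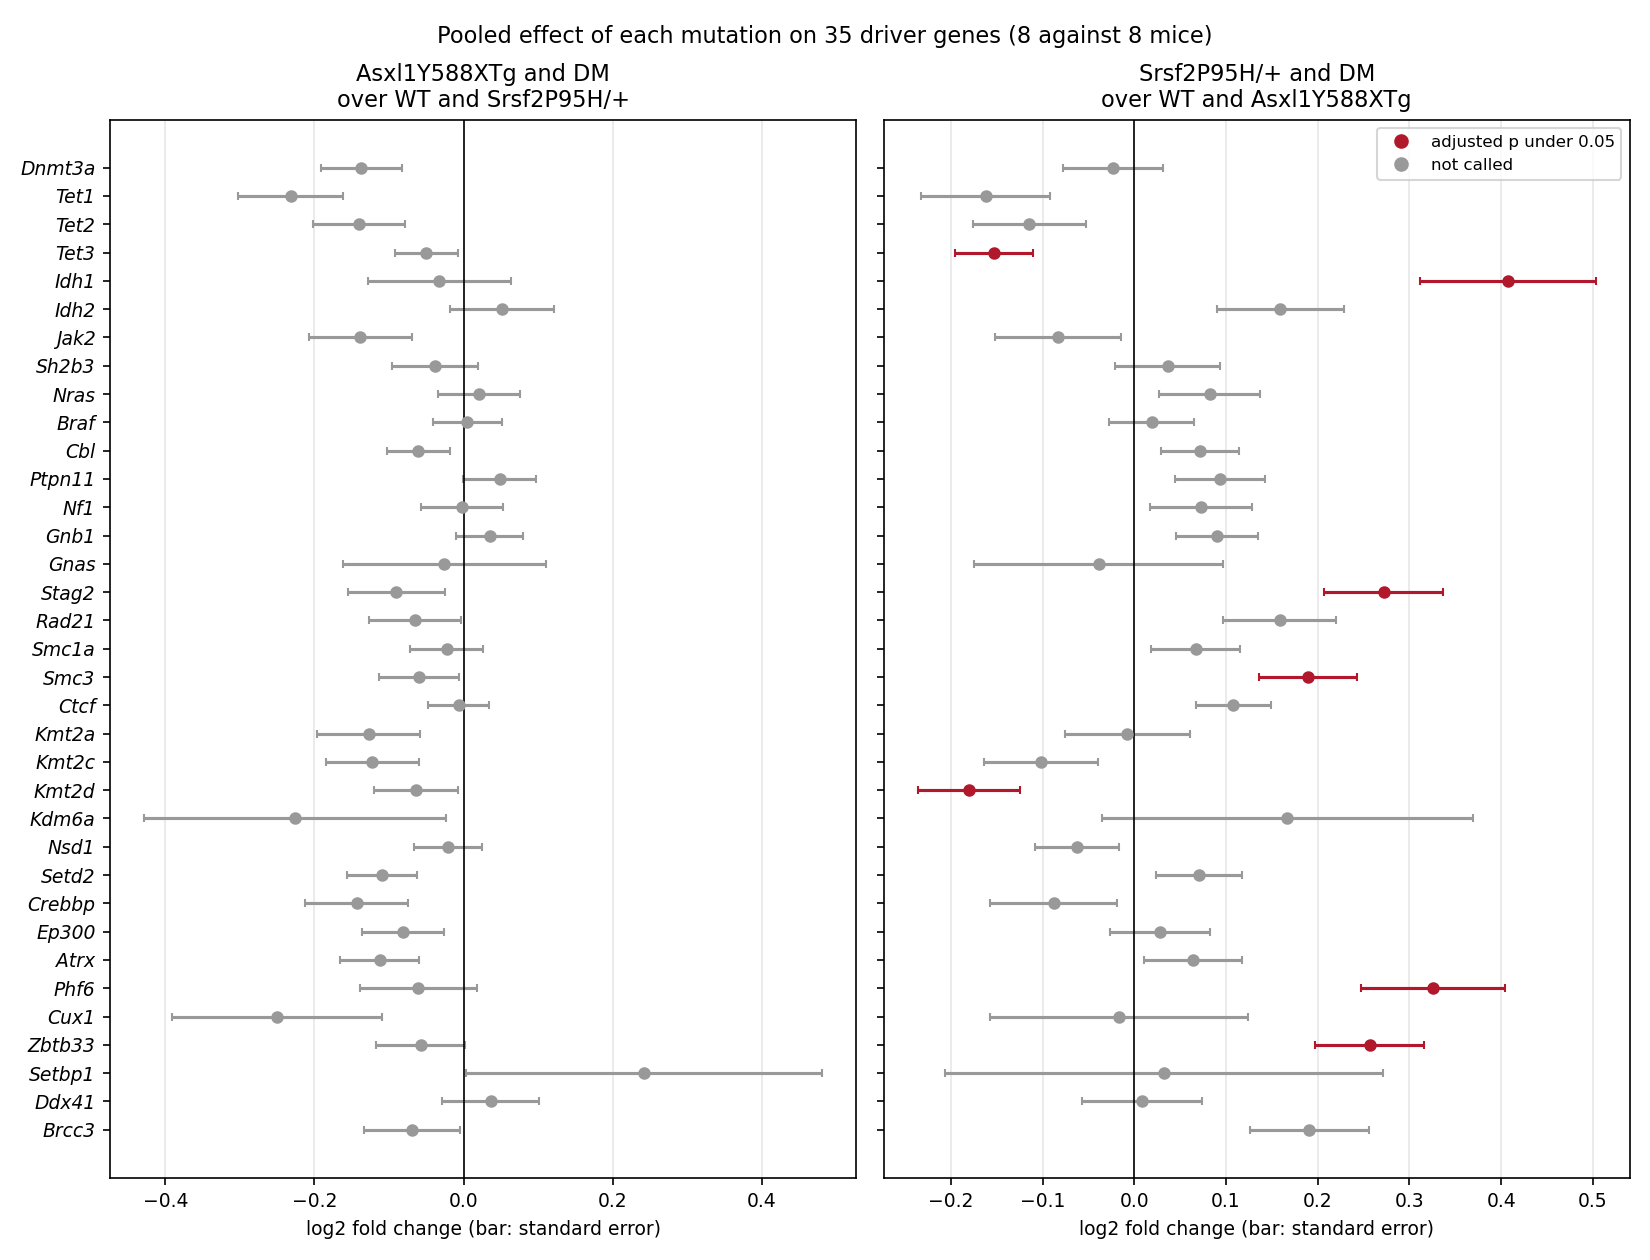
Log2 fold change with its standard error for the 35 tested driver genes in the pooled Asxl1Y588XTg comparison (left) and the pooled Srsf2P95H/+ comparison (right), 8 mice against 8 in each; red marks an adjusted p under 0.05. On the right, Idh1 lies farthest from 0 with 0.41, and on the left no gene is red.

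The median standard error of a member's log2 fold change was 0.084 in Asxl1Y588XTg versus WT and 0.059 in the pooled Asxl1Y588XTg comparison, against 0.235 and 0.166 over all genes tested. The largest called change was that of Tet1 in Asxl1Y588XTg, -0.44 on the log2 scale. A minimum log2 change of 0.5, applied as a cut to the reported calls and not as a test, therefore left no member called in any comparison. The median log2 fold change of the 35 members was 0.06 for the pooled Srsf2P95H/+ effect, against -0.02 over all genes, and with library size alone it was -0.03, against -0.11 over all genes. For the pooled Asxl1Y588XTg effect it was -0.06, against -0.02 over all genes.

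Among the DNA methylation genes, Tet1 fell in Asxl1Y588XTg and in DM, Tet3 fell in DM and in the pooled Srsf2P95H/+ comparison, and Idh1 rose in the pooled comparison. Tet1, which oxidises methylated cytosine, had 91.7, 128, 106 and 93.02 CPM in the 4 Asxl1Y588XTg libraries, 104, 114, 115 and 107 CPM in Srsf2P95H/+ and 100.5, 105, 116 and 112 CPM in DM, against 128, 133, 146 and 162 CPM in WT. All DM and Srsf2P95H/+ libraries lay below every WT library, and 3 of the 4 Asxl1Y588XTg libraries did, with Asxl1Y588XTg 2 above WT 1. Tet1 was 1.36-fold lower in Asxl1Y588XTg (log2 fold change -0.44, SE 0.10, adjusted p 0.0327) and 1.31-fold lower in DM (log2 fold change -0.39, SE 0.10, adjusted p 0.0255) than in WT. In Srsf2P95H/+ edgeR did not call it (log2 fold change -0.37, SE 0.10, adjusted p 0.0587), DESeq2 and limma-voom did (adjusted p 0.0151 and 0.0379), and the interaction had log2 fold change 0.42, SE 0.14, adjusted p 0.378. In Asxl1Y588XTg versus WT it lost its call without any 1 of Asxl1Y588XTg 1, Asxl1Y588XTg 3, Asxl1Y588XTg 4, Srsf2P95H/+ 1, DM 1, DM 2, DM 4, WT 2, WT 3 and WT 4 (adjusted p 0.0501 to 0.137). The call there was also lost with library size only, a fit on the compared groups only, the lymphoid and eosinophil marker covariate, the monocyte and neutrophil marker covariate and WT 4 and Srsf2P95H/+ 2 left out together (adjusted p 0.0614 to 0.148). In DM versus WT it lost its call without any 1 of DM 1, DM 2, DM 4, WT 3 and WT 4 (adjusted p 0.0587 to 0.0858), and with the lymphoid and eosinophil marker covariate, the monocyte and neutrophil marker covariate and WT 4 and Srsf2P95H/+ 2 left out together (adjusted p 0.0629 to 0.12).

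Tet3, the Tet gene with the highest level, had 237, 239, 229.6 and 248 CPM in Srsf2P95H/+ and 228, 223, 223 and 232 CPM in DM, against 264, 259, 252 and 249 CPM in Asxl1Y588XTg and 256, 262, 238 and 288 CPM in WT. The DM libraries were the lowest group and overlapped neither Asxl1Y588XTg nor WT. Tet3 was 1.15-fold lower in DM than in WT (log2 fold change -0.20, SE 0.06, adjusted p 0.0455) and 1.11-fold lower in the pooled Srsf2P95H/+ comparison (log2 fold change -0.15, SE 0.04, adjusted p 0.0336). In DM versus WT it lost its call without any 1 of Asxl1Y588XTg 1, Asxl1Y588XTg 3, Asxl1Y588XTg 4, Srsf2P95H/+ 1, Srsf2P95H/+ 3, Srsf2P95H/+ 4, DM 1, DM 2, DM 3, DM 4, WT 1, WT 2 and WT 4 (adjusted p 0.0531 to 0.122), and with no filter on low counts, a fit on the compared groups only, the Xist covariate, the lymphoid and eosinophil marker covariate and WT 4 and Srsf2P95H/+ 2 left out together (adjusted p 0.0541 to 0.262). The pooled value lost its call without any 1 of Asxl1Y588XTg 2, Srsf2P95H/+ 3, DM 1, DM 2, WT 2 and WT 4 (adjusted p 0.0528 to 0.0704), and with no filter on low counts, the Xist covariate and the lymphoid and eosinophil marker covariate (adjusted p 0.0519 to 0.0779). Separately, edgeR called Tet3 neither in Srsf2P95H/+ versus WT (log2 fold change -0.13, adjusted p 0.194) nor in DM versus Asxl1Y588XTg (log2 fold change -0.18, adjusted p 0.138). DESeq2 and limma-voom called it in DM versus Asxl1Y588XTg (adjusted p 0.0241 and 0.0463).

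Idh1, the cytosolic isocitrate dehydrogenase, had 49.7, 59.1, 58.9 and 58.03 CPM in Srsf2P95H/+ and 54.2, 60.1, 48.7 and 57.9 CPM in DM, against 51.7, 36.4, 41.7 and 36.6 CPM in Asxl1Y588XTg and 54.5, 43.9, 33.1 and 38.9 CPM in WT. Asxl1Y588XTg 1 and WT 1 lay within the range of the Srsf2P95H/+ and DM libraries, and the other 6 libraries without the Srsf2 mutation lay below it. Idh1 was 1.33-fold higher in the pooled Srsf2P95H/+ comparison (log2 fold change 0.41, SE 0.10, adjusted p 0.0176), and it kept its call without any 1 library. It was not called with the monocyte and neutrophil marker covariate (adjusted p 0.0733), and its change lay below the cut at a log2 change of 0.5. It was called in the other 26 alternatives. The separate comparisons gave 0.41 in Srsf2P95H/+ versus WT (adjusted p 0.0885) and 0.41 in DM versus Asxl1Y588XTg (adjusted p 0.131), neither of them called by edgeR; DESeq2 called the one in Srsf2P95H/+ versus WT (adjusted p 0.0425).

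The other members of the group were not called by edgeR. Idh2 averaged 256 ± 29.7 CPM in Asxl1Y588XTg, 276 ± 10.9 CPM in Srsf2P95H/+ and 261 ± 25.4 CPM in DM, against 226 ± 27.4 CPM in WT (SD, n = 4 each). Tet2 averaged 85.9 ± 6.71, 87.5 ± 6.44 and 82.99 ± 7.38 CPM in the 3 mutant groups, against 99.1 ± 10.6 CPM in WT. In DM versus WT it had log2 fold change -0.26, SE 0.09, adjusted p 0.068, and DESeq2 and limma-voom called it lower there (adjusted p 0.0422 and 0.0374). Dnmt3a, the de novo DNA methyltransferase, averaged 179 ± 11.4, 194 ± 3.43 and 184 ± 12.97 CPM in the mutant groups, against 205 ± 22.3 CPM in WT. Of 15 other genes of DNA methylation, demethylation and related metabolism (the last including Idh3a, Idh3b, Idh3g and Ogdh), edgeR called none in the pooled Srsf2P95H/+ comparison, DESeq2 and limma-voom called 1 each, where they called 17.6% and 15.5% of all genes, and 3 had an unadjusted p under 0.05, where 29.1% of all genes had. Their median log2 fold change was 0.11, against -0.02 over all genes.

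**Figure D3:**
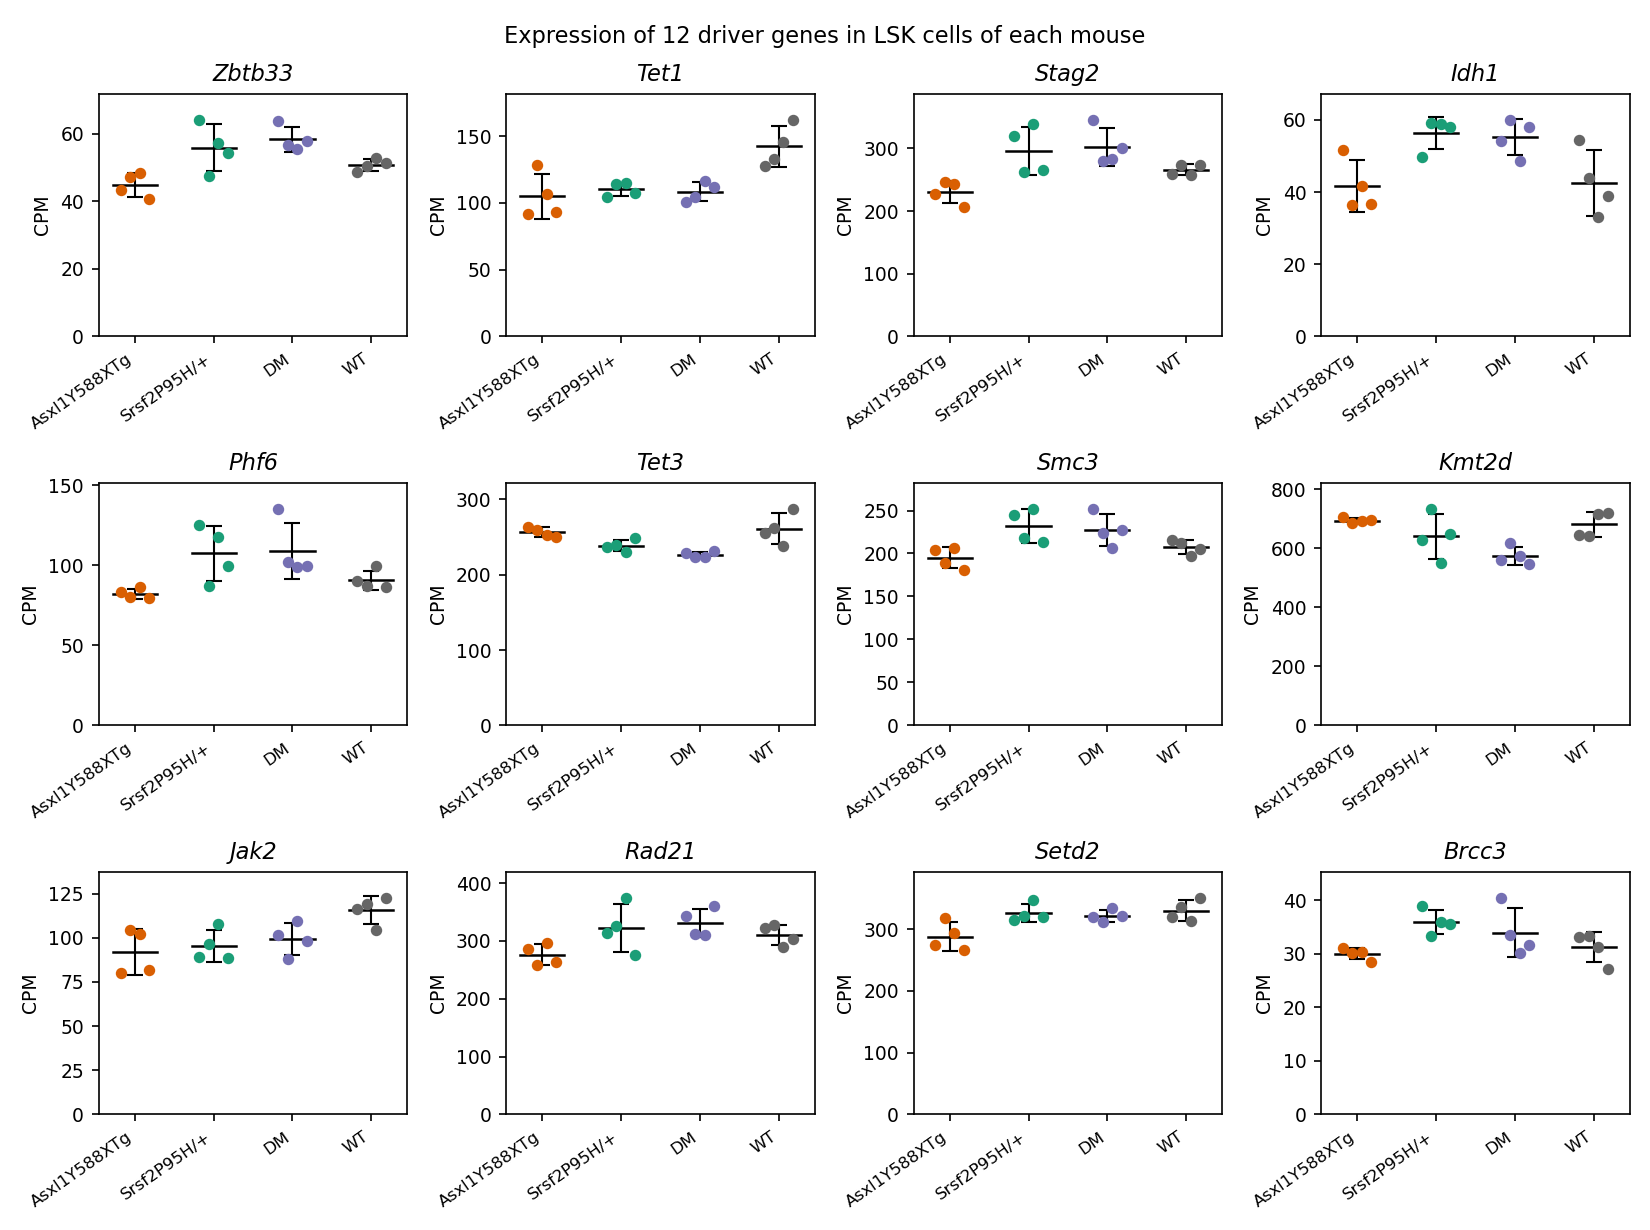
CPM of 12 driver genes in each of the 4 libraries per genotype (points), with the mean and SD (bars); axes start at 0. Tet1 in the WT libraries (128 to 162 CPM) lies above all DM libraries (100.5 to 116 CPM), while Stag2 in the DM libraries (279 to 346 CPM) lies above all Asxl1Y588XTg libraries (207 to 246 CPM).

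All 5 cohesin and CTCF genes had a positive estimate in the pooled Srsf2P95H/+ comparison, and Stag2 and Smc3 rose. The median of the 5 was 0.16. With library size alone 4 of the 5 were positive and none was called. Stag2, an X-linked cohesin subunit that binds the ring, had 319, 262, 338 and 266 CPM in Srsf2P95H/+ and 346, 279, 282 and 299.7 CPM in DM, against 227, 246, 242 and 207 CPM in Asxl1Y588XTg and 259.8, 273, 258 and 274 CPM in WT. All DM libraries exceeded every Asxl1Y588XTg and WT library, whereas 2 of the 4 Srsf2P95H/+ libraries lay within the WT range. Stag2 was 1.21-fold higher in the pooled comparison (log2 fold change 0.27, SE 0.06, adjusted p 0.0185). It lost its call without Srsf2P95H/+ 1 and without DM 1 (adjusted p 0.0543 and 0.0548), and with library size only and the monocyte and neutrophil marker covariate (adjusted p 0.0944 and 0.0754). The difference in DM versus Asxl1Y588XTg did not pass (log2 fold change 0.39, SE 0.09, adjusted p 0.0506) and was called by DESeq2 (adjusted p 0.00988) and limma-voom (adjusted p 0.0224). In Srsf2P95H/+ versus WT the log2 fold change of Stag2 was 0.16 (adjusted p 0.301 in edgeR), and no tool called it.

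Smc3, a structural arm of the cohesin ring, had 245, 218, 252 and 213 CPM in Srsf2P95H/+ and 252, 224, 206 and 227 CPM in DM, against 204, 189, 206 and 181 CPM in Asxl1Y588XTg and 216, 213, 197 and 206 CPM in WT. DM and WT libraries overlapped, and DM 3 lay at 206.0 CPM, the level of the highest Asxl1Y588XTg library. Smc3 was 1.14-fold higher in the pooled comparison (log2 fold change 0.19, SE 0.05, adjusted p 0.0346), and it lost its call without any 1 of Asxl1Y588XTg 1, Asxl1Y588XTg 2, Asxl1Y588XTg 4, Srsf2P95H/+ 1, Srsf2P95H/+ 3, DM 1, DM 2, DM 4, WT 3 and WT 4 (adjusted p 0.0508 to 0.0988). The call was also lost with library size only, no filter on low counts, a filter at 1 CPM in 4 libraries, the Xist covariate, the lymphoid and eosinophil marker covariate and the monocyte and neutrophil marker covariate (adjusted p 0.0522 to 0.194). Separately, edgeR called Smc3 neither in Srsf2P95H/+ versus WT (log2 fold change 0.16, adjusted p 0.199) nor in DM versus Asxl1Y588XTg (log2 fold change 0.22, adjusted p 0.139). Rad21, the subunit that closes the ring, had 313, 325, 375 and 276 CPM in Srsf2P95H/+ and 343, 312, 311 and 360.0 CPM in DM, against 286, 258, 297 and 264 CPM in Asxl1Y588XTg and 322, 327, 289 and 303 CPM in WT. Only Asxl1Y588XTg was fully below DM, and the pooled value did not pass (log2 fold change 0.16, SE 0.06, adjusted p 0.0995). Smc1a, the other arm of the ring, averaged 396 ± 31.4 CPM in Srsf2P95H/+ and 386 ± 19.6 CPM in DM, against 373 ± 20.02 CPM in Asxl1Y588XTg and 374 ± 13.3 CPM in WT. Ctcf, which halts cohesin at its binding sites, averaged 246 ± 13.6 and 252 ± 13.3 CPM in the groups with the Srsf2 mutation, against 228 ± 5.36 CPM in Asxl1Y588XTg and 234 ± 3.57 CPM in WT; edgeR did not call it (log2 fold change 0.11, SE 0.04, adjusted p 0.094), whereas limma-voom did (adjusted p 0.0453).

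Of 13 other tested cohesin genes, which load, release or modify cohesin or encode further subunits such as Stag1, 5 rose in the pooled Srsf2P95H/+ comparison, where 6.57% of all genes did, and none fell. They include the Smc3 acetyltransferase genes Esco2 (log2 fold change 0.44, adjusted p 0.0162) and Esco1 (log2 fold change 0.28, adjusted p 0.0177) and the cohesin regulators Pds5b (log2 fold change 0.20, adjusted p 0.0249) and Pds5a (log2 fold change 0.19, adjusted p 0.0329). The median of the 13 was 0.12, against -0.02 over all genes, and with library size alone 1 was called. In DM versus Asxl1Y588XTg Esco1 was called (log2 fold change 0.43, adjusted p 0.0427), but not with RLE scaling or library size alone (adjusted p 0.0569 and 0.131). Esco1 also lost that call with the monocyte and neutrophil marker covariate (adjusted p 0.0543). In the pooled Asxl1Y588XTg comparison all 5 cohesin and CTCF members had a negative estimate, from -0.09 to -0.01, under each of the 3 scalings, and none was called by edgeR, DESeq2 or limma-voom or had an unadjusted p under 0.05. All 5 were negative in Asxl1Y588XTg versus WT (median -0.09), whereas in DM versus Srsf2P95H/+ 3 of the 5 were positive (median 0.03).

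Among the histone and chromatin genes, Phf6 rose and Kmt2d fell in the pooled Srsf2P95H/+ comparison. Phf6, an X-linked PHD finger protein that binds chromatin, had 125, 87.2, 118 and 99.5 CPM in Srsf2P95H/+ and 135, 102, 98.8 and 99.7 CPM in DM, against 83.05, 80.03, 86.2 and 79.4 CPM in Asxl1Y588XTg and 89.9, 87.1, 99.3 and 86.5 CPM in WT. The Asxl1Y588XTg libraries lay below all Srsf2P95H/+ and DM libraries, while WT overlapped both. Phf6 was 1.25-fold higher in the pooled comparison (log2 fold change 0.33, SE 0.08, adjusted p 0.0191), and it lost its call without Srsf2P95H/+ 1 and without DM 1 (adjusted p 0.0543 and 0.0502), and with library size only and the monocyte and neutrophil marker covariate (adjusted p 0.0647 and 0.0657). Separately, edgeR called Phf6 neither in Srsf2P95H/+ versus WT (log2 fold change 0.24, adjusted p 0.18) nor in DM versus Asxl1Y588XTg (log2 fold change 0.41, adjusted p 0.0806). DESeq2 called it in DM versus Asxl1Y588XTg (adjusted p 0.0378). Kmt2d, a histone H3 methyltransferase of enhancers, had 627, 735, 551 and 648 CPM in Srsf2P95H/+ and 559, 619, 574 and 548 CPM in DM, against 705, 686, 692 and 695 CPM in Asxl1Y588XTg and 646, 642, 716 and 720.4 CPM in WT. All 4 DM libraries were lower than every Asxl1Y588XTg and WT library, and the Srsf2P95H/+ libraries were spread over both ranges. Kmt2d was 1.13-fold lower in the pooled comparison (log2 fold change -0.18, SE 0.06, adjusted p 0.0489), and it lost its call without any 1 of Asxl1Y588XTg 1, Asxl1Y588XTg 2, Asxl1Y588XTg 3, Asxl1Y588XTg 4, Srsf2P95H/+ 1, Srsf2P95H/+ 3, Srsf2P95H/+ 4, DM 1, DM 2, DM 3, DM 4, WT 2, WT 3 and WT 4 (adjusted p 0.0528 to 0.0942). The call was also lost with no filter on low counts, the replicate number as a block, the Xist covariate, the lymphoid and eosinophil marker covariate and the monocyte and neutrophil marker covariate (adjusted p 0.056 to 0.137). Separately, edgeR called Kmt2d neither in Srsf2P95H/+ versus WT (log2 fold change -0.09, adjusted p 0.506) nor in DM versus Asxl1Y588XTg (log2 fold change -0.27, adjusted p 0.0957). DESeq2 and limma-voom called it in DM versus Asxl1Y588XTg (adjusted p 0.0167 and 0.0369).

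In the pooled Asxl1Y588XTg comparison all 10 histone and chromatin members had a negative estimate under each of the 3 scalings, with a median of -0.11 against -0.02 over all genes, but none was called by edgeR, DESeq2 or limma-voom, and 2 had an unadjusted p under 0.05, where 15.4% of all genes had. Of the comparisons that are averaged here, Asxl1Y588XTg versus WT had 9 negative estimates of 10 and DM versus Srsf2P95H/+ had 8. In Asxl1Y588XTg versus WT 6 of the 10 had an unadjusted p under 0.05, where 21.5% of all genes had. In DM versus Srsf2P95H/+ 0 of the 10 had, where 6.48% of all genes had. Setd2, a histone H3 methyltransferase that acts on transcribed genes, had 274, 318, 293 and 265 CPM in Asxl1Y588XTg, 314, 322, 347 and 320.3 CPM in Srsf2P95H/+ and 319.8, 311, 334 and 321 CPM in DM, against 320.0, 336, 313 and 351 CPM in WT. Asxl1Y588XTg held the 3 lowest libraries. In Asxl1Y588XTg versus WT edgeR did not call Setd2 (log2 fold change -0.20, SE 0.07, adjusted p 0.106), whereas limma-voom did (adjusted p 0.0427), and in the pooled Asxl1Y588XTg comparison no tool did (log2 fold change -0.11, SE 0.05, adjusted p 0.271 in edgeR). The acetyltransferase gene Crebbp averaged 292 ± 17.2 CPM in Asxl1Y588XTg, 303 ± 43.4 CPM in Srsf2P95H/+ and 295 ± 15.1 CPM in DM, against 346 ± 41.6 CPM in WT, and its paralogue Ep300 259.7 ± 16.02, 280.2 ± 13.2 and 285 ± 13.8 CPM, against 295 ± 32.9 CPM in WT. Kmt2a, the target of MLL fusions in leukaemia, averaged 422 ± 46.8, 458 ± 42.5 and 444 ± 27.4 CPM in the mutant groups, against 488 ± 54.4 CPM in WT. Kmt2c, a relative of Kmt2d, averaged 292 ± 30.6, 296 ± 19.97 and 288 ± 15.8 CPM, against 337 ± 35.8 CPM in WT. For the histone methyltransferase Nsd1 the means were 578 ± 8.22, 562 ± 29.6 and 559.9 ± 14.7 CPM, against 593 ± 47.3 CPM in WT. The chromatin remodeller Atrx averaged 367 ± 39.7, 415 ± 19.8 and 403 ± 17.3 CPM, against 417 ± 20.3 CPM in WT. Among 17 other histone methyltransferase complex and demethylase genes, Ash2l (log2 fold change 0.18, adjusted p 0.0297) and Psip1 (log2 fold change 0.23, adjusted p 0.036) rose in the pooled Srsf2P95H/+ comparison, where 6.57% of all genes did. With library size alone neither was called (adjusted p 0.147 and 0.149), and 3 genes of the list were called lower and none higher. The demethylase gene Kdm5b fell in Asxl1Y588XTg versus WT (log2 fold change -0.47, adjusted p 0.0453), a call lost with library size alone (adjusted p 0.0599). That call was also lost with the lymphoid and eosinophil and the monocyte and neutrophil marker covariates (adjusted p 0.129 and 0.0977). The demethylase gene Kdm6b fell in DM versus WT (log2 fold change -0.79, adjusted p 0.0408), a call lost with the monocyte and neutrophil marker covariate (adjusted p 0.0785). Of 17 tested genes of histone H3 lysine 36 methylation, acetylation and Atrx partners, edgeR called none in the pooled Srsf2P95H/+ comparison, DESeq2 called 1 and limma-voom 3, and 4 had an unadjusted p under 0.05, a share below the 29.1% of all genes.

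None of the 9 signalling members was called by edgeR in any of the 8 comparisons, and DESeq2 and limma-voom called 1 each, Jak2. Jak2, the tyrosine kinase of cytokine receptors, had 80.01, 104, 102 and 81.7 CPM in Asxl1Y588XTg, 89.1, 96.8, 108 and 88.5 CPM in Srsf2P95H/+ and 101, 88.1, 109.8 and 97.97 CPM in DM, against 117, 119, 105 and 123 CPM in WT. The Asxl1Y588XTg libraries lay below every WT library, and WT 3 overlapped Srsf2P95H/+ and DM. In Asxl1Y588XTg versus WT the value was log2 fold change -0.33, SE 0.10, adjusted p 0.0792 in edgeR, with adjusted p 0.0425 in DESeq2 and 0.0422 in limma-voom, and the interaction had log2 fold change 0.39, SE 0.14, adjusted p 0.378. Sh2b3, the adaptor that restrains JAK2, averaged 72.3 ± 5.55, 76.1 ± 6.89 and 77.1 ± 3.82 CPM in Asxl1Y588XTg, Srsf2P95H/+ and DM, against 77.2 ± 6.92 CPM in WT.

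No RAS or G protein member was called in any comparison by edgeR, DESeq2 or limma-voom. Nras averaged 154 ± 11.7 CPM in Asxl1Y588XTg, 161 ± 16.4 CPM in Srsf2P95H/+ and 159 ± 10.1 CPM in DM, against 148 ± 6.27 CPM in WT. Braf, the kinase that RAS activates, averaged 81.8 ± 2.74, 82.6 ± 6.33 and 84.8 ± 2.82 CPM in the same mutant groups, against 83.4 ± 5.90 CPM in WT. Nf1, which switches RAS off, averaged 95.2 ± 9.09, 100.3 ± 8.11 and 108 ± 3.32 CPM, against 103 ± 8.69 CPM in WT. Ptpn11, which encodes the phosphatase Shp2, averaged 175 ± 14.5, 181 ± 11.9 and 178 ± 10.7 CPM, against 162 ± 2.29 CPM in WT. Cbl, a ubiquitin ligase for activated receptors, averaged 297 ± 16.4, 325 ± 4.36 and 319 ± 6.80 CPM, against 317 ± 19.3 CPM in WT. In the G protein pair, Gnb1 averaged 319 ± 18.1, 331 ± 15.2 and 331 ± 16.4 CPM, against 304 ± 12.3 CPM in WT, and Gnas 26.4 ± 3.47, 26.1 ± 6.02 and 25.1 ± 3.35 CPM, against 26.2 ± 7.65 CPM in WT. In the pooled Srsf2P95H/+ comparison the signalling estimates ran from -0.08 to 0.09; 7 of the 9 were positive, and with library size alone 2 were.

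Of 32 other RAS-MAPK genes, 5 rose and 1 fell in the pooled Srsf2P95H/+ comparison, where 6.57% of all genes rose and 4.07% fell. With library size alone 1 of the 32 rose and 2 fell. Ppp1cb, a phosphatase subunit that acts with Shoc2 on RAF kinases, rose (log2 fold change 0.36, adjusted p 0.012), as did Rasa1, which switches RAS off (log2 fold change 0.23, adjusted p 0.0372), and the RAS inhibitor gene Spred1 (log2 fold change 0.23, adjusted p 0.0434). The RAF kinase gene Araf fell (log2 fold change -0.16, adjusted p 0.0358), and it also fell in DM versus WT (log2 fold change -0.26, adjusted p 0.0241). Its call in DM versus WT was lost with the lymphoid and eosinophil marker covariate (adjusted p 0.113). Sos2, a RAS activator, fell in Asxl1Y588XTg versus WT (log2 fold change -0.28, adjusted p 0.0273) and in the pooled Asxl1Y588XTg comparison (log2 fold change -0.17, adjusted p 0.047). The pooled call of Sos2 was lost with RLE scaling and with library size alone (adjusted p 0.0599 and 0.104). Both calls of Sos2 were lost with the lymphoid and eosinophil marker covariate (adjusted p 0.0842 in Asxl1Y588XTg versus WT and 0.136 pooled). Both were also lost with the monocyte and neutrophil marker covariate (adjusted p 0.0588 and 0.0592). Of 19 tested JAK-STAT genes, the cytokine receptor gene Il6st rose in the pooled Srsf2P95H/+ comparison (log2 fold change 0.30, adjusted p 0.0424), 1 of 19 where 6.57% of all genes rose. Il6st was not called with library size alone (adjusted p 0.187), and the 1 call of the list was Tyk2, lower. A further list held 17 tested genes of G protein subunits and of their signalling partners (Adcy7, Prkaca and Prkar1a). Of these, Gnai3 (log2 fold change 0.28, adjusted p 0.00687) and Gng12 (log2 fold change 0.31, adjusted p 0.0399) rose in the pooled Srsf2P95H/+ comparison, 2 of 17 where 6.57% of all genes rose. In DM versus Asxl1Y588XTg Gnai3 (log2 fold change 0.39, adjusted p 0.0248) and Gnb4 (log2 fold change 0.57, adjusted p 0.0308) rose, 2 of 17 where 1.08% of all genes were called in either direction. With library size alone Gng12 and Gnb4 lost these calls (adjusted p 0.0779 and 0.0879), whereas Gnai3 kept both (adjusted p 0.0239 and 0.0499). Over all these pathway lists 16 genes were called in the pooled Srsf2P95H/+ comparison. DESeq2 and limma-voom each called all 16. Scaled by library size alone 4 of the 16 were called (Araf, Esco2, Gnai3 and Ppp1cb), and with the monocyte and neutrophil marker covariate 1 was (Gnai3). With the lymphoid and eosinophil marker covariate 4 of the 16 were called (Esco1, Esco2, Ppp1cb and Gnai3).

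Zbtb33 was the called member of the last group. It encodes Kaiso, a zinc-finger protein that binds methylated DNA. It had 64.3, 47.5, 57.4 and 54.2 CPM in Srsf2P95H/+ and 63.7, 56.9, 55.4 and 57.8 CPM in DM, against 43.3, 47.3, 48.3 and 40.8 CPM in Asxl1Y588XTg and 48.7, 50.6, 52.9 and 51.5 CPM in WT. All DM libraries exceeded every WT and Asxl1Y588XTg library, and all Asxl1Y588XTg libraries lay below every WT library. Zbtb33 was 1.3-fold higher in DM than in Asxl1Y588XTg (log2 fold change 0.38, SE 0.08, adjusted p 0.042) and 1.19-fold higher in the pooled Srsf2P95H/+ comparison (log2 fold change 0.26, SE 0.06, adjusted p 0.0164). The pooled value lost its call without DM 1 (adjusted p 0.0553), and with library size only and the monocyte and neutrophil marker covariate (adjusted p 0.111 and 0.0602). In DM versus Asxl1Y588XTg it lost its call without any 1 of Asxl1Y588XTg 1, Asxl1Y588XTg 4, Srsf2P95H/+ 4, DM 1, DM 2, DM 3, DM 4, WT 2 and WT 3 (adjusted p 0.0524 to 0.194), and with RLE scaling, library size only, no filter on low counts, a filter at 1 CPM in 4 libraries, a fit on the compared groups only, the replicate number as a block and the monocyte and neutrophil marker covariate (adjusted p 0.0504 to 0.129). The interaction had log2 fold change 0.25, SE 0.12, adjusted p 0.433. In Srsf2P95H/+ versus WT the log2 fold change of Zbtb33 was 0.13 (adjusted p 0.336 in edgeR), and no tool called it.

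The remaining members were not called by any of the 3 tools. Brcc3, a deubiquitinase subunit of the BRISC and BRCA1-A complexes, had 38.9, 33.4, 35.9 and 35.6 CPM in Srsf2P95H/+ and 40.5, 33.5, 30.2 and 31.6 CPM in DM, against 31.04, 30.1, 30.4 and 28.5 CPM in Asxl1Y588XTg and 33.1, 33.3, 31.2 and 27.2 CPM in WT. Srsf2P95H/+ exceeded every WT library, DM overlapped the other groups, and the pooled value did not pass (log2 fold change 0.19, SE 0.06, adjusted p 0.0662). Of the 6 other tested genes of those complexes, none was called in the pooled Srsf2P95H/+ comparison by edgeR, DESeq2 or limma-voom, and 1 had an unadjusted p under 0.05, where 29.1% of all genes had. Cux1, a homeobox transcription factor, averaged 554 ± 93.9, 652 ± 208 and 568 ± 43.8 CPM in Asxl1Y588XTg, Srsf2P95H/+ and DM, against 684 ± 184 CPM in WT, with single libraries from 483 to 960.1 CPM. The RNA helicase gene Ddx41 averaged 50.9 ± 4.88, 49.9 ± 4.39 and 46.8 ± 3.31 CPM, against 45.4 ± 4.97 CPM in WT. Setbp1 averaged 2.67 ± 0.904, 2.31 ± 0.325 and 2.86 ± 1.24 CPM, against 2.36 ± 1.08 CPM in WT, and its standard error was the largest of the 35, 0.24 in the pooled comparisons.

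The X chromosome carries 7 of the 35 tested members: Stag2, Smc1a, Kdm6a, Atrx, Phf6, Zbtb33 and Brcc3. In the pooled Srsf2P95H/+ comparison 3 of the 7 rose, as did 2 of the 28 members on other chromosomes, 77 of 680 other X-linked genes (11.3%) and 6.57% of all genes. The median log2 fold change was 0.19 for the 7 X-linked members, 0.04 for the other X-linked genes and -0.02 for all genes. Xist, the RNA that coats the inactive X chromosome in female cells, was above 100 CPM in 5 libraries, namely Asxl1Y588XTg 3, Srsf2P95H/+ 2, Srsf2P95H/+ 3, DM 1 and WT 1, where it had 1566 to 2312 CPM. In the other 11 it had at most 2.11 CPM. With Xist as a covariate Stag2 (adjusted p 0.0304), Phf6 (0.0315), Zbtb33 (0.024) and Idh1 (0.0248) were called.

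Kdm6a, an X-linked histone H3 demethylase known in mouse to be expressed from the inactive X chromosome too, was higher in the libraries with Xist. It had 106 to 129.8 CPM in the 5 libraries with Xist, with a median of 125 CPM, against 58.4 to 83.4 CPM and a median of 70.8 CPM in the 11 without, a ratio of medians of 1.77. The ranges did not overlap. For the other 6 X-linked members the ratio lay between 0.91 (Phf6) and 1.07 (Brcc3), and their ranges overlapped. By genotype Kdm6a averaged 74.5 ± 22.2 CPM in Asxl1Y588XTg, 97.9 ± 31.7 CPM in Srsf2P95H/+ and 86.1 ± 28.5 CPM in DM, against 89.8 ± 24.1 CPM in WT. Each genotype mixed both kinds of library, and Kdm6a was not called by any of the 3 tools.

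**Figure D4:**
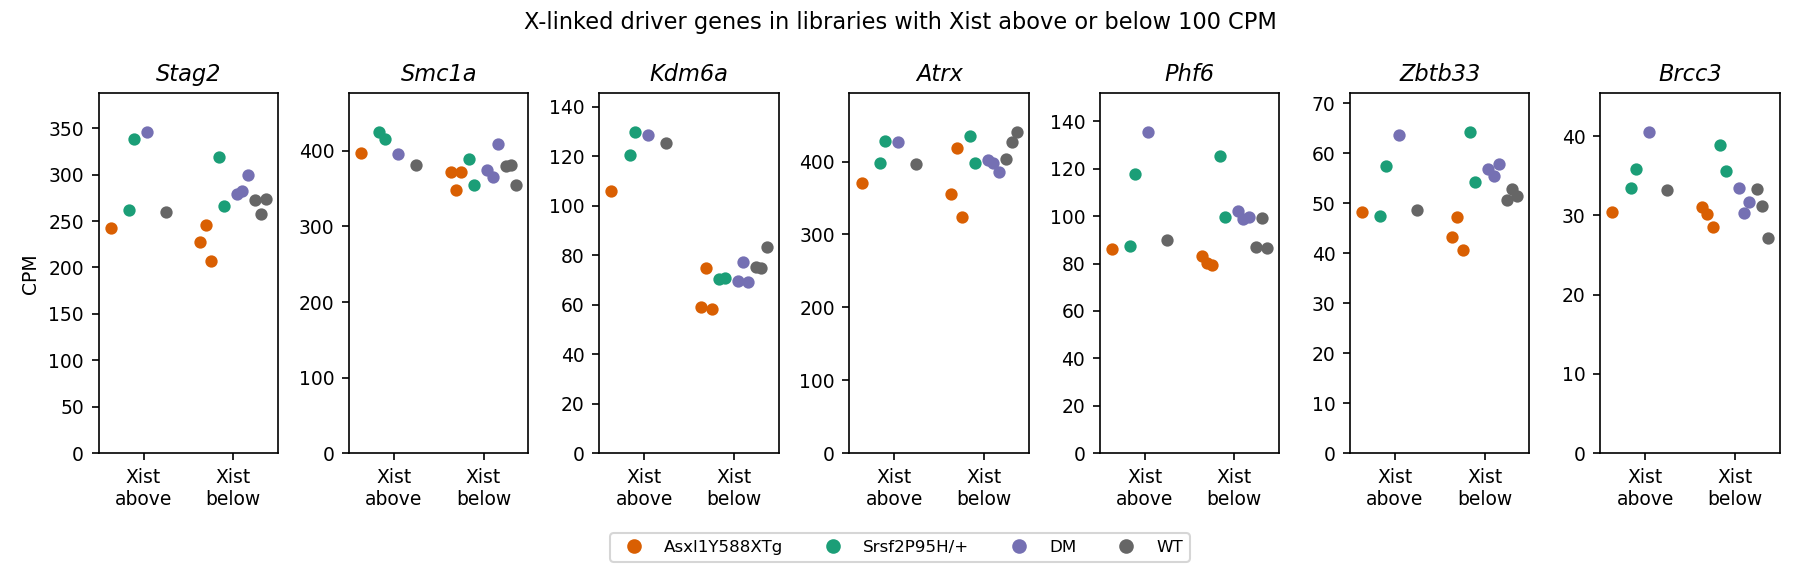
CPM of the 7 X-linked driver genes in the 5 libraries with Xist above 100 CPM and the 11 below, coloured by genotype. Kdm6a separates fully (106 to 129.8 CPM against 58.4 to 83.4 CPM), and the other 6 genes overlap.

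The spread between mice of a genotype differed widely among the driver genes. The median SD within a genotype was 0.118 on the log2 scale for the 35 members, against 0.139 for the 9452 tested genes above 10 CPM. Ctcf varied least with 0.0598, and Cbl with 0.0616 and Tet3 with 0.0649 came next. Setbp1 (0.522), Kdm6a (0.417), Gnas (0.305) and Cux1 (0.304) varied most. The low spread of Tet3 lay at percentile 2.71 of those 9452 genes.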

How the data were processed

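Bulk RNA-seq of LSK cells was analysed in 16 libraries, 1 per mouse. The values the authors deposited are whole-number read counts by gene symbol. Per the submitters' processing notes the tools were FastQC, Trimmomatic 0.38, STAR 2.7.0e and HTSeq 0.11.2 with the mm10 build; which annotation and strand mode were used is not given in the sources used here, so reads of overlapping genes cannot be told apart. Positions and exon lengths came from GENCODE M21 (GRCm38), in which 53186 symbols matched a lone gene.

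Genes were tested in R 4.3.3 with edgeR 4.0.16: filterByExpr with a minimum count of 10, TMM scaling, and a robust quasi-likelihood fit on all 16 libraries with 8 comparisons. Benjamini-Hochberg adjustment ran over all 22749 tested genes. The pipeline was tested on simulated data. CPM values are TMM-scaled, and the reported SD is over 4 mice. Each p-value sets a difference between groups against the spread between mice, estimated over all 4 genotypes with information shared across genes. The standard errors include counting error. Library totals were 83.0 to 127.6 M counts. At these totals the standard errors of the members ran from 0.058 to 0.338 in Asxl1Y588XTg versus WT.

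Alternatives included limma-voom with quality weights (limma 3.58.1) and DESeq2 1.42.0, RLE or library size scaling, no filter, a filter at 1 CPM in 4 libraries, the compared groups only, a replicate block, Xist or marker genes as covariates, omission of libraries, and a minimum log2 change of 0.5. The monocyte and neutrophil marker covariate was added after seeing the data. The members and the gene lists were chosen with earlier results of these data known. Values in every library are given for members called in any comparison, filled up to 12 by smallest p; of other pathway genes, called ones are named, at most 4 a list. Of 141 listed pathway genes, 138 were in the table and 136 passed the filter. Same-numbered mice were not treated as paired, because the labels give no pairing.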

Additional observations from a re-analysis of the deposited data

Results flagged for a closer look

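Of 140 sets of 4 libraries (35 members in 4 genotypes), 12 held a library whose gap to the nearest other exceeded Dixon's critical value for a set of 4, a rule that flags about 1 in 20 sets by chance. WT 4 stood apart for 3 members, with Nf1 at 116 CPM against 98.3 to 99.2 CPM in the other WT libraries, Nsd1 at 664 CPM against 567 to 573 CPM, and Smc1a at 354 CPM against 380.4 to 382 CPM. It is also the library with the highest B cell and eosinophil markers, whose part in these values was not tested. WT 1 stood apart for Cux1 at 960.1 CPM, against 585 to 604 CPM in the other WT libraries. Kdm6a stood apart in DM 1 (129 CPM, against 69.1 to 77.4 CPM) and in WT 1 (125 CPM, against 74.9 to 83.4 CPM), the lone libraries of those genotypes with Xist above 100 CPM. DM 1 also stood apart for Phf6 at 135 CPM, against 98.8 to 102 CPM.

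Asxl1Y588XTg 2 was high for Tet2 (95.9 CPM, against 81.4 to 83.3 CPM) and low for Ptpn11 (154 CPM, against 179.6 to 184 CPM). In Srsf2P95H/+, library 1 was low for Idh1 (49.7 CPM, against 58.0 to 59.1 CPM), library 2 high for Crebbp (368 CPM, against 279.6 to 283 CPM) and library 3 high for Nf1 (112 CPM, against 94.8 to 97.3 CPM).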

How the results depend on the processing

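In the comparisons where a named member had an unadjusted edgeR p under 0.05, its direction held under every alternative. Directions in the other comparisons were not checked. Counts of members called are given here, with the count of the reported analysis beside each comparison. The count of all genes called changed with the setting as well, over the ranges given in the next paragraph. In Srsf2P95H/+ versus WT, for example, DESeq2 called 12.8% of all genes and limma-voom 7.18%, against 0.506% in edgeR. A changed count of members is therefore not by itself a result about the members. In Asxl1Y588XTg versus WT (1 as reported), DESeq2 and the Xist covariate gave 2, limma-voom gave 3, and library size only, a fit on the compared groups only, either marker covariate, omission of both WT 4 and Srsf2P95H/+ 2, and a minimum change of 0.5 gave 0. In Srsf2P95H/+ versus WT (0), DESeq2 gave 2, and limma-voom and the replicate block gave 1. In DM versus WT (2), DESeq2 and the stricter filter gave 4, limma-voom 5, library size only 3, and no filter, the compared groups only, the Xist covariate and the monocyte and neutrophil marker covariate 1, while the lymphoid and eosinophil marker covariate, omission of both libraries and the minimum change gave 0. In DM versus Asxl1Y588XTg (1), DESeq2 gave 5, limma-voom and omission of both libraries 4, the Xist and the lymphoid and eosinophil marker covariates 2, and RLE, library size only, either filter, the compared groups only, the replicate block, the monocyte and neutrophil marker covariate and the minimum change 0. For the pooled Srsf2P95H/+ effect (7), library size only gave 3, no filter and the Xist and lymphoid and eosinophil marker covariates 4, the monocyte and neutrophil marker covariate 1 and the minimum change 0. The cause was not tested.

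Leaving out 1 library gave 0 to 4 members in Asxl1Y588XTg versus WT, 0 to 2 in Srsf2P95H/+ versus WT, 0 to 3 in DM versus WT, 0 to 2 in DM versus Asxl1Y588XTg, 0 to 0 in DM versus Srsf2P95H/+ and for the interaction, 0 to 1 for the pooled Asxl1Y588XTg effect and 1 to 8 for the pooled Srsf2P95H/+ effect. Over all alternatives the genes called ranged from 73 to 2330 (428 as reported) in Asxl1Y588XTg versus WT, 0 to 2514 (115) in Srsf2P95H/+ versus WT, 586 to 4320 (2135) in DM versus WT, 10 to 1125 (245) in DM versus Asxl1Y588XTg, 20 to 228 (56) in DM versus Srsf2P95H/+, 0 to 48 (0) for the interaction, 312 to 1073 (420) for the pooled Asxl1Y588XTg effect and 595 to 3769 (2420) for the pooled Srsf2P95H/+ effect. The labels do not say whether mice with the same replicate number are paired, and the correlations below cannot decide it. Over 24 pairs of libraries of different groups with the same number, deviations from the group means correlated at -0.600 to 0.644. In 4 of 16 libraries the best correlation was with the same number. Fitted as a block, the numbers gave 1 member in Asxl1Y588XTg versus WT, 1 in Srsf2P95H/+ versus WT, 2 in DM versus WT, 0 in DM versus Asxl1Y588XTg and 7 for the pooled Srsf2P95H/+ effect, and Kmt2d lost its pooled call (adjusted p 0.056). Depth did not limit these genes except Setbp1, with 135 to 571 counts, and Wt1.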
